A study of Homo sapiens with 6 samples.

Results

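The stretch of chromosome 1 from 32.4 to 46.8 Mb (hg19) spans the bands 1p35.1, 1p34.3, 1p34.2 and 1p34.1. It held more called peaks, mainly weak ones, in cells given a hairpin against HMGA1 than in control cells, while genome-wide fewer were called. Its members were all peaks with a summit in this 14.4-Mb block: 977 of 127153 peaks in the control list and 1192 of 112610 in the shHMGA1 list. The block had been chosen by this ratio of peak numbers, 1.22, against 0.886 for the whole lists, so the ratio and everything measured from the same comparison are given as description, with no test. The equally long stretches on either side, 18.0 to 32.4 Mb (left flank) and 46.8 to 61.2 Mb (right flank), held 500 control and 506 shHMGA1 peaks (ratio 1.01), and 664 and 590 (ratio 0.889). Among peaks at or above the median significance of both lists joined, the ratio was 1.01 in the block and 1.07 in the left flank. It was 0.848 in the right flank and 0.873 in the whole lists.

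ATAC-seq, which marks open chromatin by letting a transposase cut and tag accessible DNA, had been run on DAMI, a human leukaemia cell line. The labels describe 3 samples infected with a control lentivirus and 3 with a lentivirus carrying a short hairpin RNA against HMGA1 (shHMGA1). All 6 samples were lentivirus-infected, while neither the hairpin sequence nor the degree of silencing is stated in the labels. Each group is represented by 1 deposited peak list and by no value of a single sample. The differences therefore cannot be set against a spread between replicates, and read depth is unknown. Peak lists without transcripts do not allow the labelled cell type to be checked against its markers.

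HMGA1 belongs to the high mobility group proteins. It binds the minor groove of AT-rich DNA, bends it and competes with linker histone, and it is abundant in blood progenitors and in many leukaemias. An ATAC-seq peak marks a stretch where nucleosomes leave DNA open, such as a promoter or an enhancer. The short arm of chromosome 1 carries genes of blood cell growth and function: CSF3R, the granulocyte colony-stimulating factor receptor, maps to 1p34.3, and UROD, an enzyme of haem synthesis, to 1p34.1. In RefSeq's gene table for GRCh38.p14, all 32 of 32 genes on a list of known block genes were found on chromosome 1. Their order runs from LCK, a T-cell kinase, and the deacetylase HDAC1 through CSF3R, the MYC-family gene MYCL, the glucose transporter SLC2A1 and UROD to the repair gene RAD54L. That table and the peaks use different builds, so no peak was assigned to a gene, and band names do not place a site at a gene.

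The gain was concentrated in 2 separate stretches, and between them the lists were nearly equal in number. In 200-kb bins counted by summit, 43 of 71 occupied bins of the block held more shHMGA1 than control peaks, 17 held equal numbers and 11 held fewer. Across chromosomes 1 to 22 and X, 20.4% of occupied bins held more shHMGA1 peaks. The left flank had 22 such bins of 68 and the right flank 16 of 69. A difference of at least 5 peaks in favour of shHMGA1 was seen in 20 bins of the block, in 0 of the left flank and in 1 of the right flank, against 0.997% of all occupied bins.

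**Figure D1:**
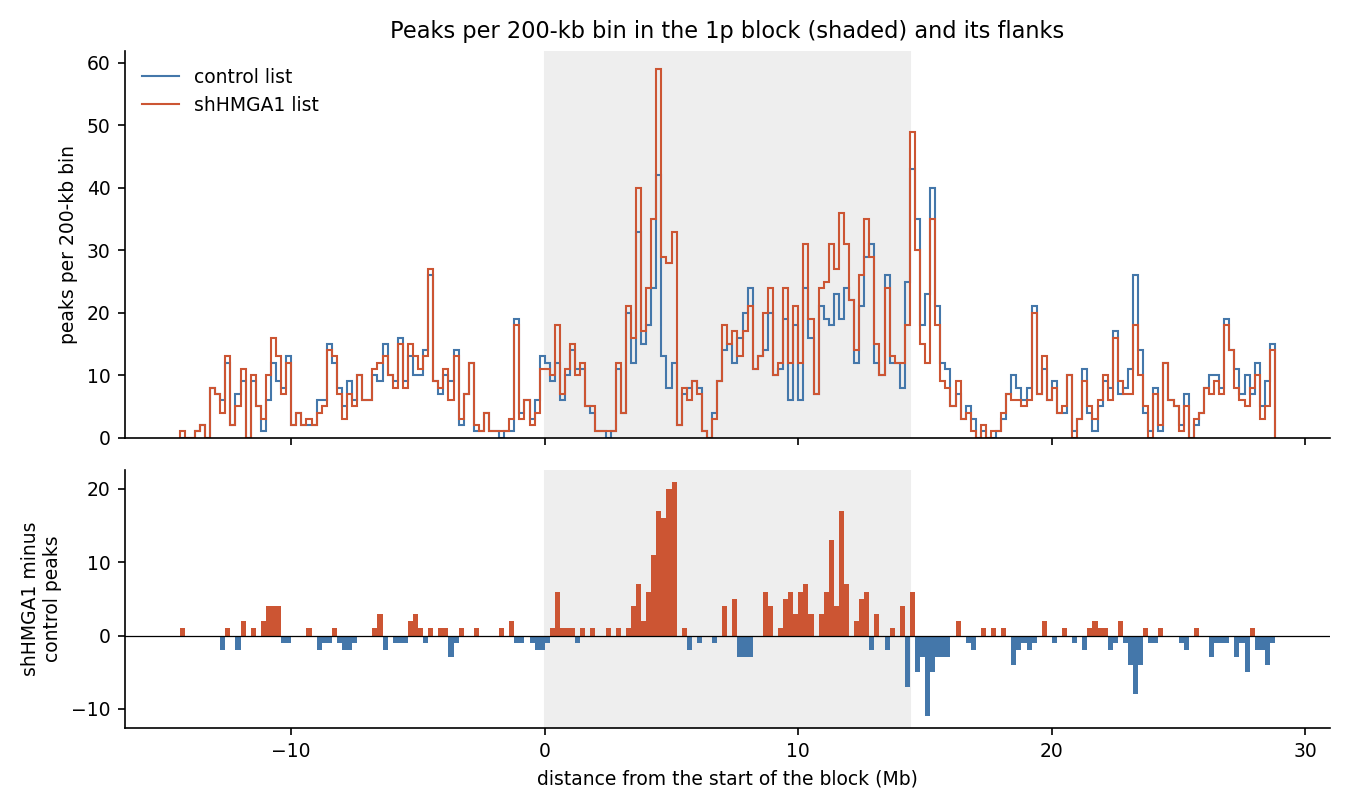
Number of peaks per 200-kb bin (upper panel) in the control list (blue) and the shHMGA1 list (red), and their difference (lower panel), against distance in Mb from the start of the block, which is shaded. The largest differences, up to 21 peaks, stand close together near 5 Mb, and a second, broader group lies between 9.4 and 12 Mb.

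The steepest gain lay in 1p34.3 between 36.4 and 37.6 Mb, called the core below and defined after the values were seen as the run of bins furthest above the block's own ratio. Control peaks numbered 117 there and shHMGA1 peaks 208 (ratio 1.78), and all 6 of its bins gained. Of the 5 bins with the largest differences, 4 were in the core. From 36.8 to 37.0 Mb the count went from 42 control to 59 shHMGA1 peaks, and from 37.0 to 37.2 Mb from 13 to 29. From 37.2 to 37.4 Mb it went from 8 to 28, and from 37.4 to 37.6 Mb from 12 to 33. In the last 3 of these bins together, 33 control peaks covering 3.49% of the DNA stood against 90 shHMGA1 peaks covering 10.2%. The median gap between neighbouring peaks there was 9517 bp in control and 3019 bp in shHMGA1.

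The core ended at a gap in both lists. Its last peak ended at 37562489 in control and at 37562425 in shHMGA1, and the next peaks began at 37738225 and 37738179. About 176 kb without a peak therefore separated the core from the next bins, where the lists were nearly equal in number. From 37.6 to 41.8 Mb there were 228 control and 236 shHMGA1 peaks (ratio 1.04, against 0.886 in the whole lists), and 6 of 21 bins gained. Of these peaks 35 of 228 in control and 46 of 236 in shHMGA1 were unshared. In the whole lists 24.9% of control and 14.8% of shHMGA1 peaks were unshared. In 3 neighbouring bins of this stretch the shHMGA1 list held fewer peaks, with 16 control and 13 shHMGA1 peaks from 40 to 40.2 Mb, 20 and 17 from 40.2 to 40.4 Mb, and 24 and 21 from 40.4 to 40.6 Mb. Before the core, from 32.4 to 36.4 Mb, the counts were 192 and 218 (ratio 1.14).

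A second gain, broader and shallower, ran from 41.8 to 44.4 Mb in 1p34.2 and the start of 1p34.1. Found by the same rule among the bins after the core, it held 220 control and 300 shHMGA1 peaks (ratio 1.36), and 12 of its 13 bins gained. Its largest bin, 44.0 to 44.2 Mb, went from 19 to 36 peaks. The excess was 80 shHMGA1 peaks over 2.6 Mb, against 91 over 1.2 Mb in the core. From 44.4 Mb to the end of the block the counts were 220 and 230 (ratio 1.05).

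The band totals followed these stretches. In 1p34.3, the band of CSF3R, 310 control and 421 shHMGA1 peaks were called (ratio 1.36), and in 1p34.2, the band of MYCL, 319 and 393 (1.23). The outer bands moved less, with 95 and 105 peaks in 1p35.1 (1.11) and 253 and 273 in 1p34.1 (1.08). Without the core the ratio of the block was 1.14 (860 control and 984 shHMGA1 peaks).

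The ratio was highest in bins with many peaks, classed by the sum of both lists, which includes the gain itself. In 23 bins of the block with 40 or more peaks in both lists together, 527 control and 669 shHMGA1 peaks gave a ratio of 1.27. In 28 bins with 20 to 39 peaks it was 1.17, and in 21 bins with under 20 peaks 1.13. The right flank also had 5 bins with 40 or more peaks, and there the ratio was 0.921 (165 control and 152 shHMGA1 peaks). The block was denser in peaks than its flanks under both conditions, with 67.8 control and 82.8 shHMGA1 peaks per Mb, against 34.7 and 35.1 in the left flank and 46.1 and 41.0 in the right flank.

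Most of the additional sites were unshared peaks, that is peaks without 1 bp of overlap with the other list. In the block 368 shHMGA1 peaks (30.9%, exact interval 28.3 to 33.6) had no control counterpart, against 14.8% of all shHMGA1 peaks. Only 154 control peaks (15.8%) had no shHMGA1 counterpart, against 24.9% of all control peaks. Both shares largely restate the ratio of peak numbers by which the block was chosen, and add no separate evidence. Of the unshared peaks of the block 70.5% were shHMGA1-only (interval 66.4 to 74.4, counting error only), against 34.5% in the whole lists. In the left flank this share was 56.3% (72 of the unshared peaks, with 56 control-only) and in the right flank 35.5% (98 against 178). These shares changed with the significance required of a peak. Above the median significance of both lists joined, the shHMGA1-only share of unshared peaks was 55.6% in the block and 67.6% in the left flank. It was 22.3% in the right flank and 29.3% in the whole lists. The ratios of peak numbers, in the same order, were 1.01, 1.07, 0.848 and 0.873. In the core 108 of 208 shHMGA1 peaks were shHMGA1-only and 16 control peaks were control-only.

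The shHMGA1-only peaks of the block were wide and of low significance. Their median width was 525 bp, against 360 bp for all shHMGA1-only peaks, 306 bp in the left flank and 371 bp in the right flank. Their median summit −log10 p, as given by the authors, was 3.84, against 4.09 for all shHMGA1-only peaks. The control-only peaks of the block were also wider than those of the whole list, with medians of 403 and 353 bp. Of the shHMGA1-only peaks of the block, 232 of 368 (63.0%) had another shHMGA1-only peak as a direct neighbour in their list. So did 86 of 108 in the core, 25 of 72 in the left flank and 29 of 98 in the right flank. Such neighbours become more frequent as the share of shHMGA1-only peaks grows. That share was 51.9% in the core, 30.9% in the block, 14.2% in the left flank and 16.6% in the right flank. The number expected from the share alone was not computed, so these counts are not read as clustering. The nearest control peak lay a median of 2511 bp away. For all shHMGA1-only peaks that median was 3536 bp. A control peak was within 1 kb of 97 of the block's peaks (26.4%, against 26.8% of all shHMGA1-only peaks) and over 10 kb from 75 (20.4%, against 28.2%).

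**Figure D2:**
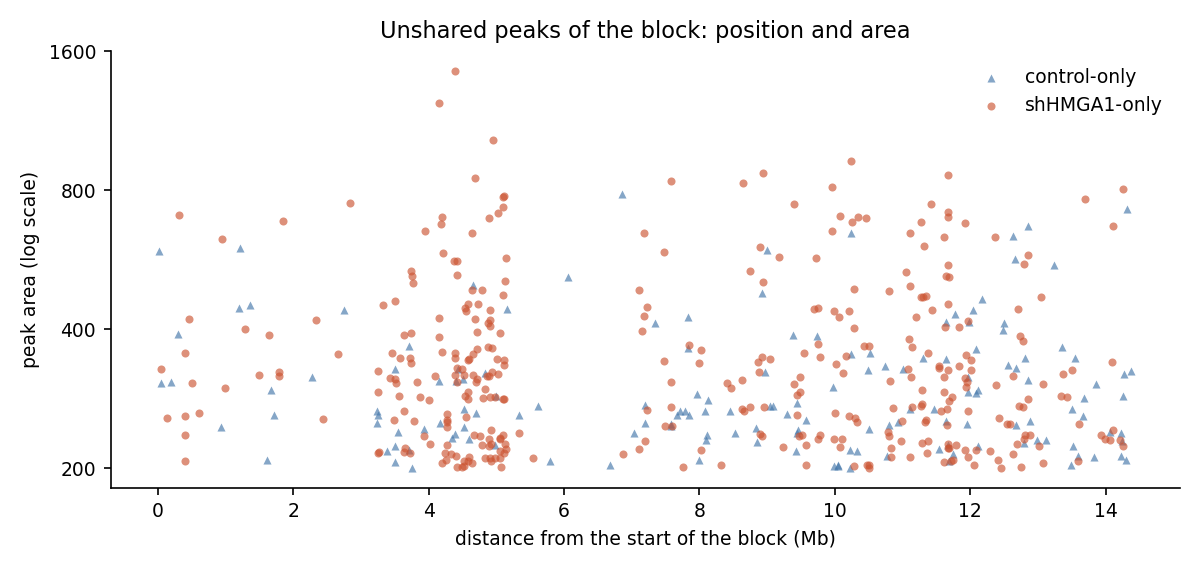
Each unshared peak of the block by distance in Mb from the block's start and by peak area as deposited (log scale): 368 shHMGA1-only peaks (red circles) and 154 control-only peaks (blue triangles). The shHMGA1-only peaks crowd just before 5.2 Mb and are frequent again from 9.4 to 12 Mb. Few peaks of either kind lie between 5.2 and 7 Mb.

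The strongest shHMGA1-only sites, ranked by the authors' peak area, were modest peaks of their list. Area is the deposited sum of significance over a peak and grows with its width. The first lay at chr1:36784579-36785740 (1p34.3), 1162 bp wide, with an area of 1451 and a summit −log10 p of 4.94. It ranked 28935 among all shHMGA1 peaks by area, and a control peak lay 1090 bp from it. The second, at chr1:36549610-36551451 (1p34.3), was 1842 bp wide with an area of 1232, but a control peak lay 358 bp from it. The third, at chr1:37349571-37350421 (1p34.3), had an area of 1029 and a summit value of 6.58, and no control peak lay within 19156 bp. All of these belong to the core, as does the seventh, at chr1:37078591-37079792 (area 850, control peak 3432 bp away). The core held 29.3% of all 368 shHMGA1-only peaks of the block, so these sites are not read as a further concentration.

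The other 6 of these 10 sites lay beyond the core. In 1p34.2, chr1:42636464-42637472 had an area of 924 with a control peak 186 bp away, and chr1:41341325-41341913 had an area of 871 with the nearest control peak at 9371 bp. Also in 1p34.2 were chr1:44066733-44067958 (area 861, control peak at 1270 bp) and chr1:42353978-42354967 (area 812, control peak at 1343 bp). The most isolated was chr1:41040496-41041186, with an area of 826, a summit value of 5.80 and no control peak within 36700 bp. The site chr1:39976226-39978447 in 1p34.3 was the widest, at 2222 bp, but its summit value was only 3.56 and a control peak lay 313 bp away. Ranked by summit −log10 p in place of area, 3 of the 10 sites remained: those beginning at 41341325, 37349571 and 41040496. These 3 are thus the sites that both rankings name, and each was at least 9371 bp from a control peak.

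The strongest control-only sites had smaller areas. The first 5 had areas of 786 at chr1:39250025-39250441 (1p34.3), 728 at chr1:46710172-46711411 (1p34.1), 670 at chr1:45255452-45256557 (1p34.1), 645 at chr1:42640438-42640838 (1p34.2) and 635 at chr1:45026214-45026628 (1p34.1). Each lay within 1002 bp of an shHMGA1 peak, and the first 10 shHMGA1-only sites all had larger areas. Those 10 were taken from 368 shHMGA1-only peaks and these 5 from 154 control-only peaks, and areas depend on depth. Ranked by area within its own list, the first control-only site was 52327 of 127153. The tenth shHMGA1-only site was 45906 of 112610. No control-only site of these 5 lay in the core, which held only 10.4% of the block's control-only peaks. Their summit −log10 p values, in the same order, were 6.07, 5.27, 4.02, 5.02 and 5.39. These lay within the range of the 10 shHMGA1-only sites, 3.56 to 6.60. Over all unshared peaks of the block the median summit value was 4.03 for control-only and 3.84 for shHMGA1-only peaks. At or above the median area of both lists, 41 of the block's 1192 shHMGA1 peaks were shHMGA1-only, against 0.656% of all shHMGA1 peaks. At that area 5 of its 977 control peaks were control-only, and the whole-list share was not computed. Area favours wide peaks. At or above the median summit −log10 p the block had 11 shHMGA1-only and 5 control-only peaks, and the whole lists 833 and 2567.

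The gain was largest at the weak end of the lists. All peaks of both lists were divided into 10 equal parts by summit −log10 p. In the weakest part (2.82 to 3.84) the block had 138 control and 275 shHMGA1 peaks (ratio 1.99), and in the next part 102 and 136 (1.33). The 4 parts in the middle of the scale had 280 control and 330 shHMGA1 peaks (ratio 1.18, interval 1.00 to 1.39), and the sixth part 66 and 87 (1.32). The strongest 3 parts together had 363 control and 343 shHMGA1 peaks (ratio 0.945, interval 0.813 to 1.10), with 0 unshared peaks in either list. Unshared peaks of that strength were rare in the whole lists too, with 104 of 38182 control and 47 of 33752 shHMGA1 peaks. Such intervals treat the lists as independent counts and cover counting error only. Numbers of strong sites thus lay near equality in the block, between the left flank (210 and 210 peaks) and the right flank (234 and 209, ratio 0.893), against 0.884 in the whole lists. In the core the weakest 3 parts went from 59 to 132 peaks (2.24), and the strongest 3 from 33 to 35.

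**Figure D3:**
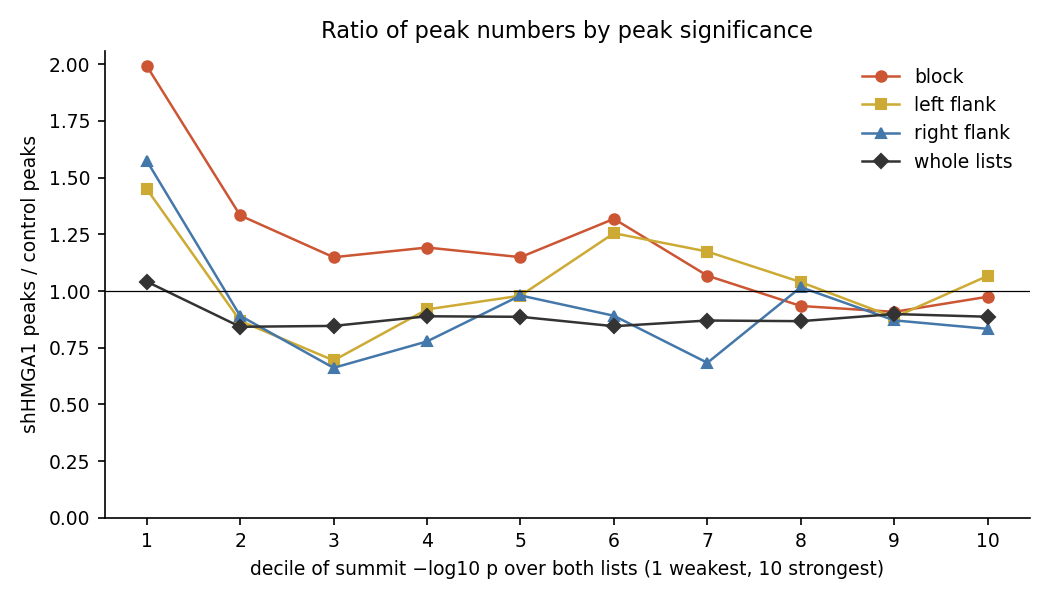
Ratio of shHMGA1 to control peak numbers in each decile of summit −log10 p over both lists, for the block, its flanks and the whole lists. The block starts at 1.99 in the weakest decile and falls below 1 in the strongest 3 deciles. The weakest decile was also above 1 in both flanks.

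The flanks also had ratios above 1 in the weakest part of the scale, on fewer peaks than the block and without a computed interval. There the left flank held 20 control and 29 shHMGA1 peaks (1.45) and the right flank 47 and 74 (1.57). In the whole lists the ratio of that part was 1.04. The weakest 3 parts together were not raised in the flanks. They held 107 control and 96 shHMGA1 peaks in the left flank (ratio 0.897, interval 0.674 to 1.19). In the right flank they held 173 and 172 (0.994, interval 0.800 to 1.24). In parts 2 to 5 the flanks lay below 1, while the block lay between 1.15 and 1.33. Weak peaks also made up more of the block than of the flanks. The weakest part held 14.1% of the block's control peaks and 23.1% of its shHMGA1 peaks, against 4.00% and 5.73% in the left flank and 7.08% and 12.5% in the right flank. The number of weak peaks a caller reports changes with read depth, which could not be examined from the lists.

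Sites present in both lists were slightly wider in the shHMGA1 list. In the block 703 regions had exactly 1 peak in each list. The median width was 697 bp in control and 740 bp in shHMGA1, and the median log2 ratio of widths (shHMGA1 over control) was 0.06 (interval 0.04 to 0.09), against -0.03 over all 83581 such pairs. The shHMGA1 peak was the wider in 414 of 703 pairs (58.9%), against 44.8% of all pairs. The left flank had the same direction (255 of 407 pairs wider, median 0.07, interval 0.04 to 0.12), and the right flank the opposite (173 of 439, median -0.07, interval -0.10 to -0.03).

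Peak areas of these pairs were close to equal in the block, where the whole lists showed lower areas in shHMGA1. The median area was 828 in control and 909 in shHMGA1, with a median log2 ratio of 0.05 (interval 0.02 to 0.08), against -0.14 for all pairs. The shHMGA1 area was the larger in 390 of 703 pairs (55.5%), against 37.2% of all pairs. At least 1.5 times the control area was reached by 103 pairs (14.7%, against 9.23% of all pairs), and the reverse by 80 pairs (11.4%, against 20.2%). Area per base of peak gave a median log2 ratio of -0.04 and the summit −log10 p one of -0.02, so only width and area were above 0. Both values lay above those of all pairs, -0.09 and -0.07. Areas depend on depth and on how the samples were combined, so only the distance to the flanks and to all pairs can be read from them.

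Taken over all pairs, area ratios in the block were close to those of its left flank and above those of its right flank. In the left flank the median log2 area ratio was 0.09 (interval 0.05 to 0.13; larger in 251 of 407 pairs), and in the right flank -0.21 (interval -0.28 to -0.15; larger in 123 of 439). The intervals of the block and the left flank overlap, whereas that of the right flank lies below both. When all pairs were divided into 4 equal parts by area, the part with the largest areas had medians of 0.05 in the left flank, 0.04 in the block (231 pairs, interval 0.02 to 0.06) and -0.12 in the right flank, against -0.09 for all pairs of that size. In the part with the smallest areas the block did not follow its left flank. The medians there were 0.21 in the left flank (interval 0.12 to 0.35) and -0.006 in the block (interval -0.11 to 0.12). In the block the interval included 0 in every part but the one with the largest areas. The left flank thus combined larger pair areas in shHMGA1 with nearly equal numbers of peaks.

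Single pairs differed more than the medians. Among 396 pairs with both areas at or above the median of the lists, the largest rise was in the core, from a control peak of 791 bp and area 1040 at chr1:37060586-37061376 to an shHMGA1 peak of 1966 bp and area 3065 (log2 ratio 1.56, summit value from 5.20 to 7.47). The next, also in the core, widened from 743 bp at chr1:36808198-36808940 to 3843 bp, with areas of 1274 and 3646 (log2 ratio 1.52). The others were in 1p35.1 at chr1:32814744-32815424 (areas 631 and 1676) and chr1:34383883-34384322 (680 and 1800), and in 1p34.1 at chr1:44329779-44330279 (621 and 1451). The largest falls were at chr1:43870765-43871869 (1p34.2, areas 2135 and 760, log2 ratio -1.49), chr1:35965405-35966490 (1p34.3, 2110 and 979) and chr1:44300024-44301569 (1p34.1, 4078 and 2080). The last of these falls lay in the same 200-kb bin, 44.2 to 44.4 Mb, as the pair in 1p34.1 that rose.

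The 2 largest control peaks of the block were not one-to-one pairs. At the first, in 1p34.1, control had 2 peaks, chr1:45264702-45268343 (area 17193) and chr1:45269427-45276634 (7208 bp, area 26326), where shHMGA1 had 1 peak of 12162 bp and area 46012 at chr1:45264656-45276817. At the second, in 1p34.3, control had 1 peak at chr1:36850132-36854585 (4454 bp, area 21765), where shHMGA1 had 2, chr1:36850123-36853103 (2981 bp, area 22792) and chr1:36853219-36853887 (669 bp, area 591). These sites were thus cut into peaks differently in the lists.

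Among one-to-one pairs, the 5 with the largest control areas had area ratios near 1. The first was at chr1:36688628-36691066 in the core, with 20154 in control and 20765 in shHMGA1 and widths of 2439 and 2450 bp. The next 4, at 46048561, 46151352, 36614126 and 43231208, had area ratios of 0.946, 1.02, 1.04 and 0.955.

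**Figure D4:**
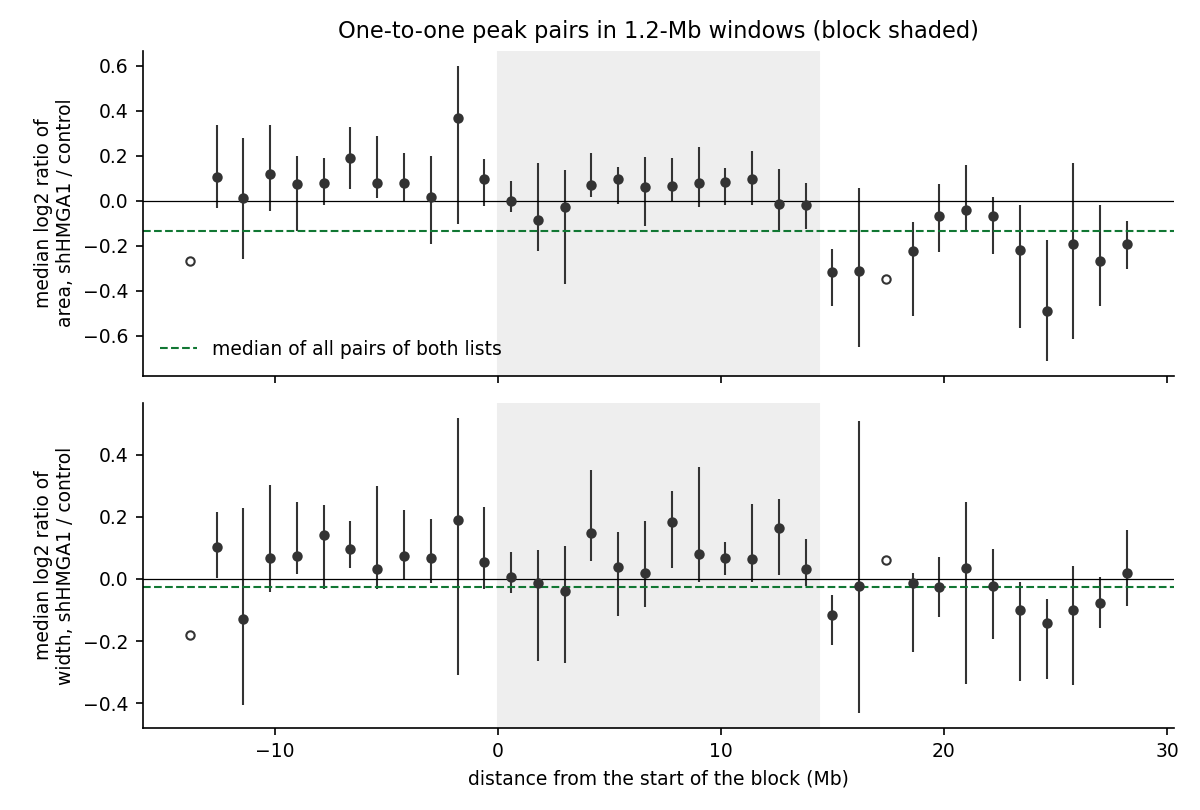
Median log2 ratio of peak area (upper panel) and peak width (lower panel) of one-to-one pairs, shHMGA1 over control, in 1.2-Mb windows against distance in Mb from the block's start; bars are 95% binomial intervals of the median and open circles are windows with under 6 pairs. Area medians lie above 0 in 11 of 12 windows of the left flank and 7 of 12 of the block, and below 0 in all 12 of the right flank.

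For pair areas a step lay close to the block's right end. From 44.4 to 46.2 Mb the median log2 area ratio was 0.04 (117 pairs, interval -0.06 to 0.13), from 46.2 to 46.8 Mb -0.22 (29 pairs, interval -0.46 to -0.07), and from 46.8 to 48.6 Mb -0.33 (110 pairs, interval -0.48 to -0.21; larger in shHMGA1 in 23). The right side of this step holds 1p33, the band of the blood transcription factor gene TAL1. Inside the block, the first 3 windows of 1.2 Mb (32.4 to 36.0 Mb) had medians of -0.002, -0.09 and -0.03, and the last 2 (44.4 to 46.8 Mb) of -0.01 and -0.02. On the left, medians were above 0 again through most of the left flank and to 16.4 Mb (0.05 over 74 pairs from 16.4 to 18.0 Mb, interval -0.01 to 0.16), and from 14.0 to 16.4 Mb the median was -0.17 (54 pairs, interval -0.41 to -0.05). The windows from 44.4 to 48.6 Mb and from 14.0 to 18.0 Mb were set after the values were seen.

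For peak numbers the edges depended on the baseline. The run of 200-kb bins with the highest sum of shHMGA1 peaks above the whole-list ratio reached from 18000001, the outer limit of the search, to 55200000, far beyond the block on both sides. Against equal numbers (a baseline of 1) it ran from 20400001 to 46600000, and over all of chromosome 1 from 17000001 to 46600000. Scored by pair areas it ran from 18800001 to 46200000. The last 3 of these runs ended within 400 kb of each other, the first far beyond them, and none placed the start at the block's own edge. Just inside and outside the block's limits, the counts were 13 control and 11 shHMGA1 peaks (32.2 to 32.4 Mb) and 12 and 11 (32.4 to 32.6 Mb) at the start, and 25 and 18 (46.6 to 46.8 Mb) and 43 and 49 (46.8 to 47.0 Mb) at the end.

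**Figure D5:**
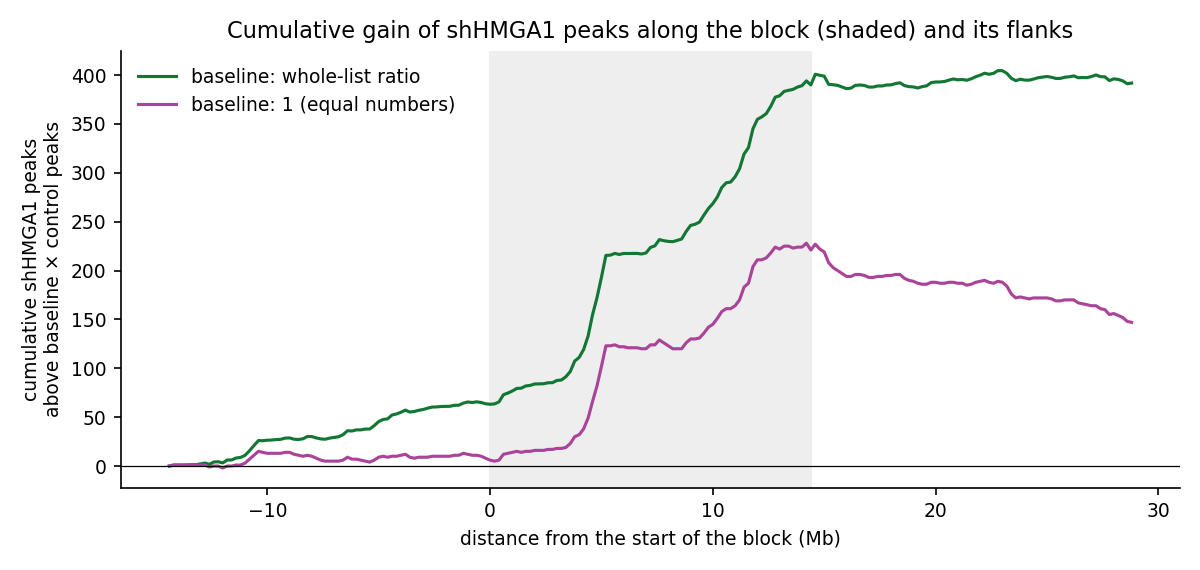
Running sum, over 200-kb bins, of shHMGA1 peaks minus the baseline times control peaks, against distance in Mb from the block's start (block shaded), for the whole-list ratio (green) and for equal numbers (purple). Both curves rise steeply in the core, are nearly flat after it and rise again towards the end of the block, and the purple curve declines beyond it.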

How the data were processed

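The study compared ATAC-seq of DAMI cells infected with control or shHMGA1 lentivirus, 3 samples per group. Per the submitters' processing notes, Genrich called the peaks on hg19; the version, settings, aligner and way of pooling samples are not stated there. The deposited lists, assigned to groups by their own names, give the summit −log10 p (unadjusted), the peak's signal, which is the area under its significance curve (lowest value 200.0), and a score equal to 1000 times area over width, capped at 1000 (112608 of 112610 shHMGA1 rows, every control row). The score was not used further. Read counts were not analysed here, so depth is unknown.

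Peaks were placed by summit (start plus summit offset) and compared by an overlap of at least 1 bp. Pairs are peaks that overlap exactly 1 peak of the other list and the reverse, placed by the control summit. Shares and ratios of numbers have exact Clopper-Pearson 95% intervals, and medians have binomial order-statistic intervals. All treat neighbouring peaks as independent and cover counting error only. Bands came from the hg19 table shipped with circlize. Named sites were the 10 shHMGA1-only and 5 control-only peaks with the largest areas, and the 5 highest and 3 lowest pairs by area ratio with both areas at or above the joined median (609). Overlap, pairing and edge rules were tested on simulated data, where the baseline of the whole-list ratio overran a planted block and a baseline of 1 found it to within a few bins. In the simulation both flanks lost peaks at random, whereas the left flank here had a ratio of 1.01. The simulation therefore does not show that a baseline of 1 places the edges of these data. The block, lists and rules were chosen with earlier results of these data known. No hg19 genome or annotation was used, so sequences and genes at the sites are not reported. Software was pandas 2.3.3 and numpy 2.4.6 under Python 3.11.15, scipy 1.17.1 for intervals, and matplotlib 3.10.9.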

Additional observations from a re-analysis of the deposited data

How the results depend on the processing

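Without values per sample, no replicate could be left out. No paired analysis was possible because the lists carry no replicate numbers. The ratio of peak numbers in the block, 1.22, was 1.01 above the joined median significance (whole lists 0.873) and 1.11 with lists cut to equal lengths by significance (interval 0.980 to 1.27). At equal lengths the whole-list ratio is 1 by construction. Merging, and leaving out any band or the core, kept it within its interval. The shHMGA1-only share of unshared peaks, 70.5%, was 55.6% above the joined median (interval 46.1 to 64.7, which includes equal numbers), 75.2% with equal list lengths, 62.0% with a reciprocal overlap of 50%, 65.3% without 1p34.3 and 65.3% without the core; the core was left out after seeing the data. In the whole lists the shHMGA1-only share was 29.3% above the joined median, 49.2% with equal list lengths and 41.0% with a reciprocal overlap of 50%. Filtering only the counted list left 11 shHMGA1-only and 5 control-only peaks in the block. The left flank lay above the block in both settings of significance, with ratios of 1.07 and 1.18 and shares of 67.6% and 83.1%. The log2 area ratio of pairs, 0.05, reversed to -0.037 for area per base and -0.022 for summit significance; it was 0.025 above the joined median and 0.017 at equal lengths, and its interval reached below 0 in both and without 1p34.3 (0.039) or 1p34.2 (0.031). The width ratio stayed within its interval under each alternative run. Bins with more shHMGA1 peaks, 43 of 72, were 25 above the joined median, 76 of 144 at 100 kb and 26 of 36 at 400 kb. The start of the gain moved to 20400001 (baseline 1), 18800001 (pair areas) and 17000001 (whole chromosome, added after seeing the data). Its end moved to 47000000 (baseline of the flanks), 46600000 (baseline 1, both searches), 46200000 (pair areas) and 55500000 (shifted bins). The cause of these moves was not tested. Unknown depth limits every count of weak peaks.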
